A study of Mus musculus with 2 samples.

Results

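The loci of 7 genes that specify the germ layers and the trophoblast were examined for 5-hydroxymethylcytosine (5hmC) in E14 mouse embryonic stem cells: Sox17, Gata4 and Gata6, which encode endoderm transcription factors, the mesoderm gene T, Eomes, Cdx2 and Pax6. Each locus was the mm9 interval of the gene with about 20 kb on either side, chosen by gene name and position, although with earlier results of these data known. The 7 intervals span 450 kb, or 450 bins of 1 kb out of 2415133 such bins on the 19 autosomes. They hold 4289 of the 12855415 cytosines listed on the autosomes, with 54954 of 174468659 reads. The study profiled genomic DNA of E14, an established line of mouse embryonic stem cells, in 2 libraries from cells at passage 12, which form 1 untreated group. Per the labels' protocols, the DNA was glucosylated and cut with AbaSI, an enzyme that cuts at a set distance from glucosylated 5hmC, and the cut ends were sequenced. The deposited table gives 1 read count per listed cytosine for the whole series. The values below therefore have no replicate error, no test between samples was possible, and intervals given cover counting error only.

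In the embryo, Sox17 directs formation of the definitive and extraembryonic endoderm, and the zinc-finger factors Gata4 and Gata6 act in the primitive endoderm and the heart. T, also called brachyury, is a T-box factor of the mesoderm and notochord, and the related T-box factor Eomes acts in the trophoblast and in the precursors of mesoderm and endoderm. The homeobox factor Cdx2 sets up the trophectoderm, the outer layer of the blastocyst, and the paired-box factor Pax6 acts in the neural ectoderm and the eye. Embryonic stem cells keep such genes largely silent, and many of their start regions are rich in CG dinucleotides, the main target of cytosine methylation in mammals. 5hmC is made from 5-methylcytosine by the TET enzymes, so it can only arise where a cytosine was methylated first.

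The sequences just before the gene starts show how much CG sequence the start regions of these genes hold. RefSeq promoter entries of the GRCm38.p6 build were used for 4 of the 7 genes. The 250 bases before the start are printed for each, 5′ to 3′ in the direction of the gene, with every CG in capitals. The first of the Pax6 entries is shown. They lie at chr5:147307250-147307499 (minus strand) for Cdx2, and on the plus strand at chr9:118477939-118478188 for Eomes, chr17:8434173-8434422 for T and chr2:105668646-105668895 for Pax6. These coordinates belong to GRCm38.p6 and not to mm9, the build of all other positions given here.
Cdx2 promoter: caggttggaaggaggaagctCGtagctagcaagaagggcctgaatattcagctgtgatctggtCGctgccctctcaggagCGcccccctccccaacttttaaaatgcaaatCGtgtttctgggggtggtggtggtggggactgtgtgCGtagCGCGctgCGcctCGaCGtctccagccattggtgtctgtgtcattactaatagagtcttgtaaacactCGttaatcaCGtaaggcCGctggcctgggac
Eomes promoter: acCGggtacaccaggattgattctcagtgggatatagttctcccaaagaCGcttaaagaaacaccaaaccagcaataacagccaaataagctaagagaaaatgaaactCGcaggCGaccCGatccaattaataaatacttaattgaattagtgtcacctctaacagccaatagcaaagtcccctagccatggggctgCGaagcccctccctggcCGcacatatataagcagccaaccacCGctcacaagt
T promoter: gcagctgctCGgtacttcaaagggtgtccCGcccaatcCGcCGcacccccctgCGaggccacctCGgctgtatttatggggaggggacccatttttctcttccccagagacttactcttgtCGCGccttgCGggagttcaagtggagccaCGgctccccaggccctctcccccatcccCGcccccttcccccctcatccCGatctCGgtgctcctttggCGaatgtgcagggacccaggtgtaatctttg
Pax6 promoter: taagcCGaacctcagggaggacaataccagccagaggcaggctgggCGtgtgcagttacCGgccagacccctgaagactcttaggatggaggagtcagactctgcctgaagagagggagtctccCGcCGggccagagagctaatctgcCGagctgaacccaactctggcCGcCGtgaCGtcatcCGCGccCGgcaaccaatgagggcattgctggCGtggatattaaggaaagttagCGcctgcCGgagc
The Pax6 sequence holds 15 CG, that of T 14, that of Cdx2 13 and that of Eomes 8. The median over 32851 RefSeq promoter entries was 6 CG in the same 250 bases, and 92.1% of entries held at least 1. All 4 sequences thus offer CG sites at which the assay could have listed a cytosine. The table of listed cytosines was made on mm9, so single CGs of these sequences were not matched to listed positions.

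The 7 loci together had more listed cytosines per length than the autosomes. They held 9.53 listed cytosines per kb (95% Poisson interval 9.25 to 9.82), against 5.32 per kb on the autosomes, a ratio of 1.79. Taken singly, 6 loci lay above the autosomes in listed cytosines per kb and 5 in reads per kb. Sox17 was below in both, at 0.903 times the cytosines and 0.676 times the reads per kb of the autosomes. Single autosomes ranged from 4.10 to 8.96 per kb, so the 7 loci together lay above the highest of them. Those values are means of whole chromosomes, whereas the loci are short intervals around genes, and the background was not matched for gene content. Reads were at 122 per kb in the loci and 72.2 per kb on the autosomes, a ratio of 1.69, which lies within the 50.04 to 152 reads per kb of single autosomes. The higher read density came with more listed positions and not with more reads at each. A CG site had a median of 9 reads in the loci (95% order-statistic interval 9 to 10) and 10 on the autosomes. The median distance from a listed cytosine to the next was 29 bp in the loci and 35 bp on the autosomes. The CG content of the mm9 intervals was not used here, so these densities are per length of DNA and not per CG.

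Bins of 1 kb gave the same order. The median bin held 8 listed cytosines and 81.5 reads in the loci, against 3 cytosines and 18 reads on the autosomes. Of the 450 bins, 23 or 5.11% had no listed cytosine (exact 95% interval 3.27 to 7.57), against 27.3% of autosomal bins. A bin without a listed cytosine is not a measured 0, because the authors' minimum for listing is not given and the lowest listed count was 2. Bins with at least 20 listed cytosines numbered 50, or 11.1%, against 5.26% of autosomal bins. At least 300 reads were found in 43 bins, or 9.56%, against 5.73%. Of the 4289 cytosines, 12 or 0.28% had more than 168 reads, against 0.0998% on the autosomes, and they lay at Gata4 (10) and Eomes (2). These shares describe 1 pooled table, neighbouring bins are not independent, and no test was made of the differences.

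**Figure D1:**
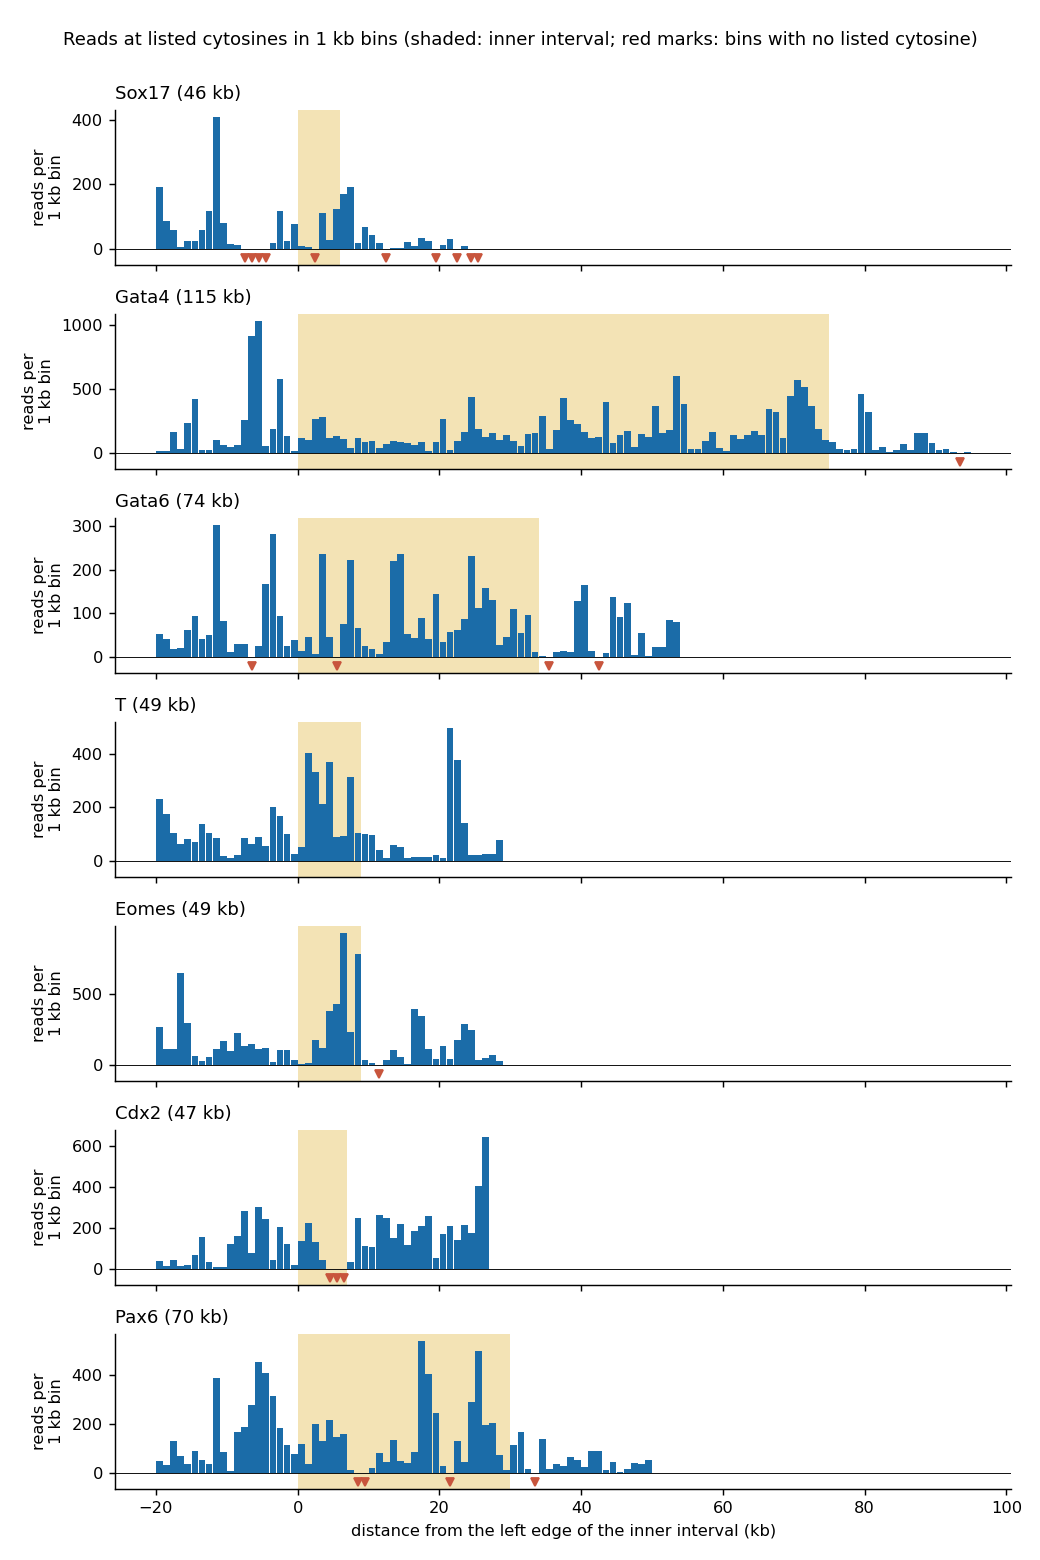
Reads at listed cytosines in 1 kb bins across the 7 loci, plotted against the distance in kb from the left edge of the inner interval (shaded), the part of each locus left after 20 kb is taken from either end. Red marks show the 23 bins with no listed cytosine, of which Sox17 has 10 and T has 0, and the highest bin of all is the 1033 reads in the left flank of Gata4.

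The 7 loci were not alike. Gata4 had the most listed cytosines per kb (11.7, Poisson interval 11.1 to 12.4), followed by Cdx2 with 11.6 (10.7 to 12.6), Eomes with 10.6 (9.66 to 11.5) and Pax6 with 10.4 (9.62 to 11.1). The intervals of neighbours in this order overlap, and those of Gata4 and Pax6 meet only at 11.1. Overlap alone does not show that a difference lies within counting error, and the order was not tested. T followed with 8.71 per kb (7.91 to 9.58), Gata6 with 6.82 (6.24 to 7.45) and Sox17 with 4.80 (4.19 to 5.48), and the intervals of these 3 do not overlap each other. By reads the order was Eomes with 168 per kb, Gata4 with 163, Cdx2 with 142, Pax6 with 119, T with 112, Gata6 with 71.2 and Sox17 with 48.8. Eomes thus carried 3.44 times the reads per kb of Sox17. Among windows of the same length laid end to end along the autosomes, the Gata4 locus had more listed cytosines than 88.7% and the Sox17 locus more than 56.6%. The other 5 lay between 67.3% (Gata6) and 87.5% (Cdx2).

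The order of the loci was not that of their chromosomes. Gata4 lies on chromosome 14, where the mean was 4.10 listed cytosines per kb, the lowest among the chromosomes of the 7 genes, and its locus reached 2.86 times that mean. The ratio to the own chromosome was 1.98 for Cdx2, 1.93 for Pax6, 1.85 for Eomes, 1.46 for T, 1.40 for Gata6 and 1.11 for Sox17. In reads, 6 of the 7 loci exceeded their chromosome, by 1.19 times (Gata6) to 3.23 times (Gata4). Sox17 stood at 0.919 times the reads per kb of chromosome 1.

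**Figure D2:**
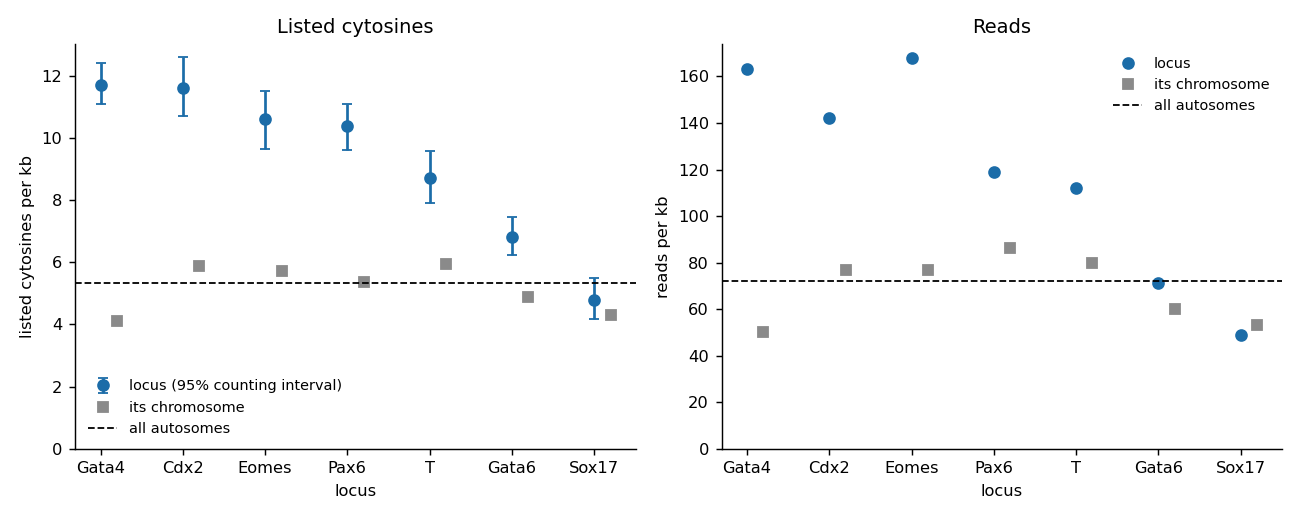
Listed cytosines per kb (left) and reads per kb (right) of each locus (circles, with 95% counting intervals on the left), of its chromosome (squares) and of all autosomes (dashed line). Gata4, Cdx2, Eomes and Pax6 lie above 10 cytosines per kb, and Sox17 is the locus nearest to its chromosome.

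To compare the genes with their surroundings, each locus was split into its inner interval, which is the locus less 20 kb at either end, and its flanks. The inner intervals are 6 to 75 kb long, and the RefSeq lengths of the genes in GRCm38.p6 run from 6.35 kb (Cdx2) to 72.8 kb (Gata4), so the inner intervals are close to the genes in length. The exact gene ends in mm9 were not checked. In 6 of the 7 loci the inner interval had more listed cytosines per kb than the flanks. T had 15.8 per kb inside and 7.12 in its flanks, a ratio of 2.21 (exact 95% interval 1.8 to 2.72). Eomes had 16.6 inside and 9.20 in its flanks, a ratio of 1.8 (1.48 to 2.18). Gata4 had 13.7 inside and 7.92 outside, with a ratio of 1.73 (1.53 to 1.97), and Gata6 had 8.06 and 5.78, with a ratio of 1.40 (1.17 to 1.67). Pax6 had 11.6 inside and 9.40 outside, a ratio of 1.24 (1.07 to 1.44). For Sox17 the ratio of 1.25 had an interval of 0.848 to 1.81, which includes equality, and with a minimum of 10 reads per cytosine it was 0.789. Cdx2 was the exception, with 7.57 listed cytosines per kb inside and 12.3 in its flanks, a ratio of 0.614 (0.454 to 0.817).

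Reads showed the contrast more strongly at the T-box genes and at Cdx2. Eomes had 339.9 reads per kb inside and 129 in its flanks, and T had 219 inside and 88.3 in its flanks. Of the 3059 inner reads of Eomes, 652 came from 1 pair of cytosines with equal counts, which may be 1 set of reads counted at both. Cdx2 had 76.1 reads per kb inside and 154 in its flanks. Sox17 had 46.3 inside and 49.2 outside, and Gata4, with 170.5 inside and 148 outside, differed less in reads than in listed positions. Over the 7 loci together, the inner intervals had 12.0 listed cytosines per kb, the 10 kb next to them 8.55 and the outer 10 kb of the flanks 7.56. Gata4 makes up 75 of the 170 inner bins, so it weighs most in the first of these values.

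**Figure D3:**
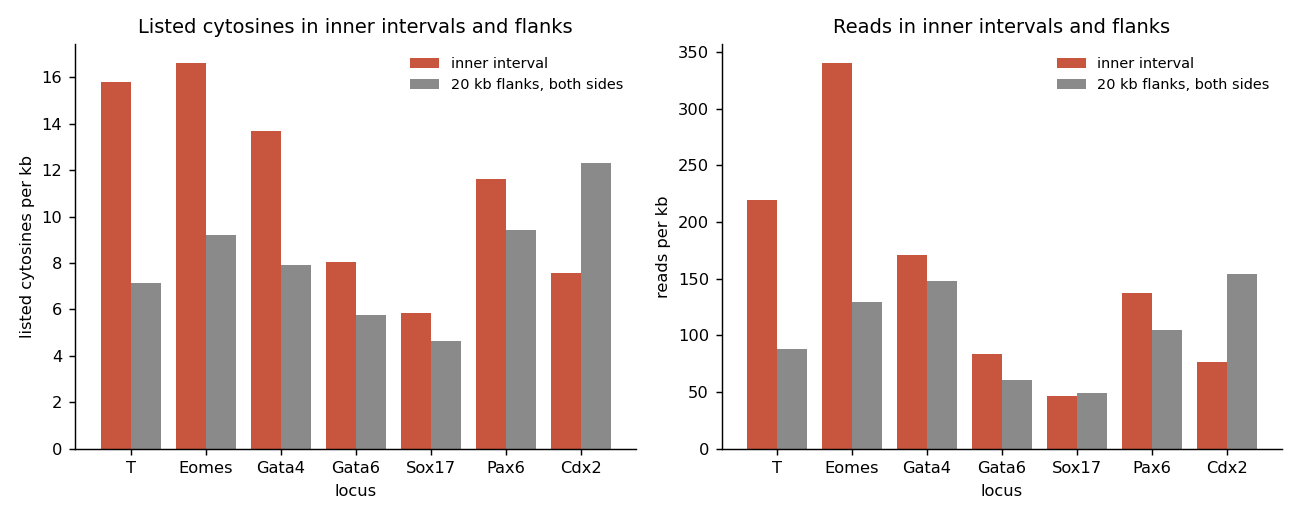
Listed cytosines per kb (left) and reads per kb (right) in the inner interval of each locus and in its 20 kb flanks on both sides, with the loci ordered by the ratio of cytosines. T and Eomes show the largest excess inside, and Cdx2 is the locus with fewer cytosines inside (7.57 per kb) than in its flanks (12.3 per kb).

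The Sox17 locus (chr1:4461001-4507000) was sparse, with 221 listed cytosines and 2246 reads. No locus had more bins without a listed cytosine, 10 of 46, and 4 of them were adjacent, from 4473001 to 4477000 in the left flank. The distance across that stretch was 4291 bp, from 4472835 to 4477126, the longest between listed neighbours in any of the 7 loci. Reads were gathered in few places. The bin from 4469001 held 410 reads on 26 cytosines, against a median bin of 19.5 reads, and the bins from 4461001 and 4488001 held 193 and 192 reads. Together these 3 bins carried 35.4% of the reads of the locus, the largest such share of the 7. Its highest cytosine had 51 reads, at 4488541 on the plus strand in the right flank, and the next had 45 reads at 4469936. Within the 6 kb inner interval 35 cytosines with 278 reads were listed. The GRCm38.p6 table lists 0 other genes within 20 kb of Sox17.

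Gata4 (chr14:63797001-63912000) was the longest locus, with 1348 listed cytosines and 18696 reads. Its 3 bins with the most reads held 13.6% of them, the smallest such share of the 7 loci. Only the bin from 63910001 had no listed cytosine, 1 of 115. At least 20 cytosines were listed in 18 bins, and 14 of these lay within the gene interval. The bin with the most cytosines, singled out after its values were seen, was that from 63887001, with 47 cytosines and 569 reads. It stood in a row of 4 such bins from 63886001 to 63890000, near the right end of the gene interval. The bins with the most reads lay outside the gene, in the left flank, with 1033 reads from 63811001 and 910 reads from 63810001. The third was inside, with 603 reads from 63870001. In GRCm38.p6, Neil2, which encodes a DNA glycosylase of base excision repair, and Fdft1, which encodes squalene synthase, are the annotated genes within 20 kb of Gata4. The highest cytosines were a plus-strand CG at 63810264 and a minus-strand CG at 63810286, with 245 reads each.

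Gata6 (chr18:11032001-11106000) had 505 listed cytosines with 5271 reads, and its reads per kb were 0.986 times those of the autosomes. Its highest bin, from 11040001, held 303 reads, the lowest maximum of the 7 loci, followed by 282 from 11048001 and 237 from 11066001, against a median of 46. Empty bins numbered 4 of 74 and were all isolated. The longest distance between listed neighbours, 2605 bp from 11056054 to 11058659, lay inside the gene interval. Its highest cytosines were at 11040966 with 64 reads and at 11105524 with 58 reads, both CG on the minus strand and both in the flanks. Gata6os, a long noncoding RNA gene, is its annotated neighbour in GRCm38.p6.

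At T (chr17:8607001-8656000) each of the 49 bins held at least 1 listed cytosine, with a total of 427 cytosines and 5506 reads. The inner interval held 142 cytosines and 1972 reads in 9 kb. Its bin from 8628001 held 402 reads on 28 cytosines. The bin with the most reads lay in the right flank, with 496 reads from 8648001, next to 376 reads from 8649001. The highest cytosine was in that flank as well, at 8648551 on the plus strand with 89 reads, and the next was inside the gene interval, at 8634604 with 87 reads. T2 and LOC115486424 are the genes annotated within 20 kb of T in GRCm38.p6.

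Eomes (chr9:118367001-118416000) had the most reads per kb, with 8231 reads on 517 cytosines. Of these reads, 3059 lay in the 9 kb inner interval and 5172 in the 40 kb of flanks. The inner interval held the highest bins, toward its right edge. Its bin from 118393001 held 931 reads on 44 cytosines, and the bin from 118395001 held 782 reads on 12. The 782 reads came mostly from 2 cytosines, at 118395014 (plus strand) and 118395036 (minus strand), with 326 reads each, or 83.4% of the reads of the bin. Without the 0.1% of cytosines with the most reads, which removes these, Eomes had 155 reads per kb and was still the highest of the 7 loci. The third bin, from 118370001 in the left flank, held 645 reads. Its only empty bin was that from 118398001. Gm33408, Gm22479 and Gm33460 are annotated within 20 kb of Eomes in GRCm38.p6.

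Cdx2 (chr5:148092001-148139000) had fewer listed cytosines per kb in its gene interval than in its flanks. Of 546 cytosines with 6688 reads, 53 lay in the 7 kb gene interval and 493 in the flanks of 20 kb on either side. Per kb these were 7.57 and 12.3. Bins in the interval were filled from its left edge, with 13, 20, 15 and 5 cytosines, and the last 3, from 148116001 to 148119000, had none. The distance between the listed neighbours was 3586 bp, from 148115597 to 148119183. The flank beyond it, on the right, had 318 listed cytosines, and the left flank had 175. In GRCm38.p6, Urad, which encodes an enzyme of uric acid breakdown, the miRNA gene Mir7k, Gm35112 and Gm29778 are annotated within 20 kb of Cdx2. The bins with the most reads were at the outer end of the right flank, with 645 reads from 148138001 and 403 from 148137001, and the third was in the left flank, with 302 reads from 148106001. The highest cytosines, at 148138598 and 148138620, had 135 reads each.

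Pax6 (chr2:105488001-105558000) had 725 listed cytosines with 8316 reads, in several separate groups. Before the gene, 4 adjacent bins from 105500001 to 105504000 held 25, 29, 33 and 23 cytosines, and the bin from 105502001 held 451 reads. Inside it, the bins from 105525001 and 105533001 held 538 and 495 reads and were the highest of the locus. Between the groups were stretches without a listed cytosine, the longest of 3279 bp from 105515049 to 105518328, which holds 2 empty bins. The left flank had 270 listed cytosines and the right flank 106. The highest cytosines were at 105504836 and 105504858 in the left flank, with 105 reads each. Elp4, which encodes a subunit of the Elongator complex, and the long noncoding RNA genes Paupar and Pax6os1 are annotated within 20 kb of Pax6 in GRCm38.p6.

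The side of the gene start was read from the strand of the RefSeq entries for Cdx2, Eomes, T and Pax6, whose sequences are given above. Sox17, Gata4 and Gata6 were not examined in this way, so these 4 genes do not stand for all 7. The start-side edge of the inner interval stands for the gene start only approximately, since no mm9 annotation was used. For Cdx2, the first 3 kb inside that edge had 0 listed cytosines, the next 3 kb had 40, and the 3 kb of flank before the edge had 32. For Eomes, the first 2 bins inside the edge held 1 and 3 cytosines, and the third held 20. Its longest distance between listed neighbours, 1609 bp from 118387296 to 118388905, fell there too. The median bin of the whole Eomes locus held 9. In T the bin before the edge held 4 cytosines and the bin after it 7, which is the median bin of that locus, and the next bin held 28. Pax6 had 13 cytosines on either side of the edge, 5 in the following bin and 22 in the one after, against a median bin of 8.5. A second Pax6 entry lies further along the gene, at chr2:105682213-105682462 in GRCm38.p6. The bins around that start were not examined in this way, so the Pax6 values cover the first entry only. Whether the printed CGs lie in the stretches without listed cytosines was not resolved, because no mm9 position of the gene starts was used.

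**Figure D4:**
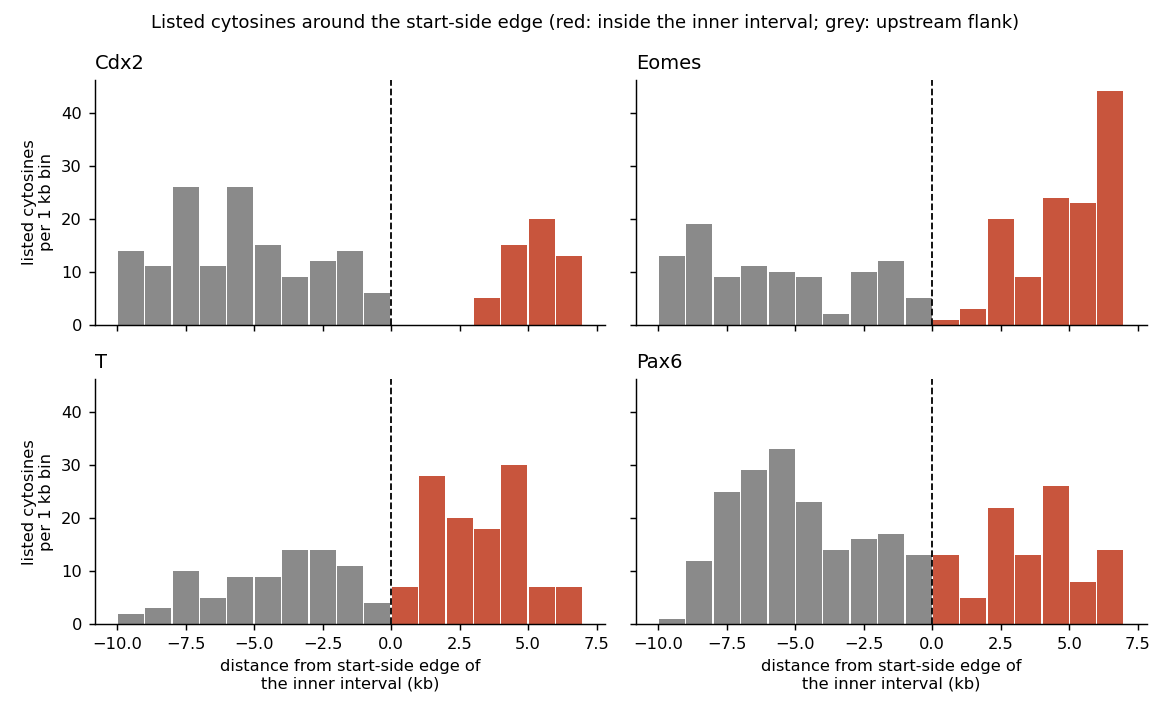
Listed cytosines per 1 kb bin around the start-side edge of the inner interval (dashed line at 0) for the 4 genes whose RefSeq promoter entries were used. Distances in kb are counted in the direction of the gene. Red bars lie inside the interval and grey bars in the upstream flank. Cdx2 has 3 empty bins inside the edge, and Eomes has 1 and 3 cytosines in its first 2 bins.

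Distances of at least 1 kb between listed neighbours were less frequent in the loci than on the autosomes, with 40 of 4282 distances or 0.934%, against 3.43%. The share is per distance and not per length of DNA, and the loci have more listed cytosines per kb. Distances that reach past the ends of a locus were not counted. Gata6 had 11 of the 40 and Sox17 had 9, while Gata4, the longest locus, had 3.

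The highest cytosines were often paired. In 6 of the 7 loci, all but Gata6, the 6 highest cytosines included a plus-strand and a minus-strand CG of the class coded 2CG, a code the labels do not explain, 22 or 23 bp apart and with equal counts. There were 11 such pairs. In Gata4, Eomes, Cdx2 and Pax6 the highest cytosine was part of one. How often the highest cytosines of other autosomal windows form such pairs was not counted, so the pairs are not shown to be particular to these loci. On the autosomes the 2CG class had a median of 16 reads, against 9 and 10 for the classes coded 1CG and CGCH. In the loci these medians were 13, 8 and 9. The 2CG class made up 8.84% of the listed cytosines of the loci and 18.4% of their reads, against 7.63% and 14.3% on the autosomes. If each pair stands for 1 set of reads, its reads are counted at both cytosines. With 2CG and 2CH cytosines given a weight of 0.5, Eomes had 149.7 reads per kb, Gata4 143 and Sox17 45.8. At the cytosines of all 11 pairs, the opposite strand of the same CG carried fewer reads or was not listed. At Eomes the cytosines opposite to the 326-read pair had 7 and 12 reads, and at Gata4 the cytosine opposite to 63810264 was not listed and that opposite to 63810286 had 15 reads. The cytosines were picked for their high counts, so a lower count opposite to them is a description only. Outside the pairs, the opposite strand of a high cytosine could be closer in count, as at 11040759 of Gata6, with 46 reads against 35 on the other strand.

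Both strands of a CG were listed in 1088 of 3026 CG dyads of the loci, or 36.0% (exact 95% interval 34.2 to 37.7), against 37.4% on the autosomes. The share was highest in Eomes with 42.9% (37.7 to 48.3), against 35.9% on chromosome 9, and in Cdx2 with 39.3% (34.4 to 44.4), against 37.6% on chromosome 5. It was lowest in Sox17 with 26.5% (20.01 to 33.8), against 34.3% on chromosome 1, and in Gata6 with 28.6% (23.8 to 33.7), against 34.2% on chromosome 18. Gata4 had 38.1% (35.0 to 41.2), against 34.2% on chromosome 14. The intervals of T, Cdx2 and Pax6 include the value of their chromosome. The loci with low shares also had the lowest median reads per CG site, 8 in both Sox17 and Gata6, against 9 to 11 in the other 5. The part of depth in these shares was not tested. Plus-strand cytosines made up 48.0% (Sox17) to 51.5% (Gata6) of each locus.

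Cytosines outside CG, together called CH, separated Gata6 from the other loci. They made up 73 of its 505 listed cytosines, or 14.5% (exact 95% interval 11.5 to 17.8), against 6.12% on chromosome 18 and 5.99% on the autosomes. This interval does not overlap those of the other 6 loci, the highest upper bound being 7.97% at T. In the other 6 loci the share ran from 2.01% (Cdx2) to 5.39% (T). It was below that of the chromosome in each, but the interval of T (3.44 to 7.97) includes the 6.01% of chromosome 17. The CH cytosines of Gata6 were spread over 32 of its 74 bins with at most 6 in a bin, and 38 of the 73 lay in the gene interval. CH cytosines occurred in 98 of the 450 bins of all loci, or 21.8%, against 16.5% of autosomal bins. Of the 98 bins, 32 were at Gata6, and without that locus, an alternative chosen after seeing the data, 66 of 376 bins or 17.6% held one. In Gata6, CA was the most frequent with 39 cytosines, then CT with 18 and CC with 16. Their median was 8 reads, as at the CG sites of the locus, and together they carried 14% of its reads. The highest was a minus-strand CA at 11066545 with 50 reads, the third highest cytosine of the locus. Of the 73, 49 had the class code 2CH and 24 the code 1CH. Without the 2CH class, an alternative chosen after seeing the data, CH made up 5.26% of the remaining cytosines of Gata6, against 2.45% on chromosome 18. As a share of all listed cytosines, 1CH made up 4.75% at Gata6, 3.04% at T and at most 1.36% at the rest. No interval was computed for these shares, so the separation from T is given only for all CH cytosines together. The rule by which the authors assigned reads to CH cytosines is not stated in the labels or the table.

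**Figure D5:**
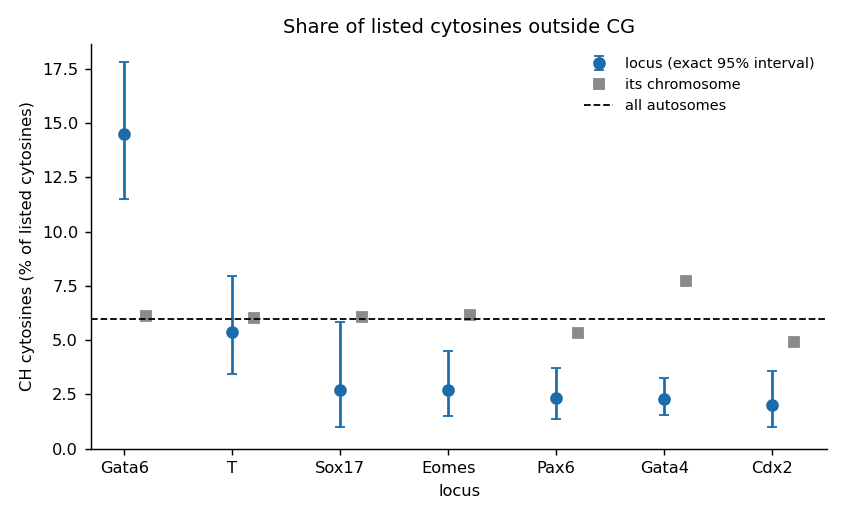
CH cytosines (CA, CT or CC) as a percentage of the listed cytosines of each locus (circles, with exact 95% intervals), of its chromosome (squares) and of all autosomes (dashed line). Gata6 stands at 14.5%, and the other 6 loci lie between 2.01% and 5.39%.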

How the data were processed

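The series holds 2 libraries of E14 genomic DNA. The software named in the submitters' processing notes is CASAVA 1.8.2 and Bowtie, and the build is mm9. The deposited table gives raw read counts, 1 per listed cytosine, that the authors did not scale, and it pools the libraries in 1 column. The rule that assigned reads to cytosines, the filters, the treatment of PCR copies and the way the libraries were joined are not stated in the labels or the table. Reads copied by PCR carry no molecular identifiers and are not independent molecules, so intervals cover counting error only.

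Sites whose deposited position (counted from 0) lay in a locus interval were kept, and positions are printed counted from 1. Bins of 1 kb start at the left end of each locus, and autosomal bins cover each chromosome between its outermost listed sites. Intervals are exact Poisson, Clopper-Pearson or order-statistic intervals at 95%. The functions were tested on simulated sites. Python 3.11.15, numpy 2.4.6, pandas 2.3.3 and scipy 1.17.1 were used. In each locus the rule named the 3 bins with the most reads, the longest run of empty bins and the 2 highest cytosines, and any other feature was chosen after its values were seen. The loci and measures were chosen with earlier results of these data known. Neighbouring genes, strands and promoter sequences are from RefSeq (GRCm38.p6), in which all 7 symbols were found, and no mm9 annotation or sequence was used.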

Additional observations from a re-analysis of the deposited data

How the results depend on the processing

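No paired analysis was possible because the table pools both libraries, and no library could be left out. The density ratio of listed cytosines kept within its counting interval except that it was 1.74 with a minimum of 10 reads and 1.90 against the loci's own chromosomes, and leaving out 1 locus at a time gave 1.65 to 1.89. The read ratio was 1.65 with a minimum of 10 reads, 1.67 without the top 0.1% of cytosines, 1.66 with 2CG and 2CH weighted 0.5, 1.83 against the own chromosomes, and 1.5 to 1.83 with 1 locus left out. The ratio of highest to lowest locus was 4.47, 3.17 and 3.27 under the first 3 of these settings and 2.36 to 3.44 with 1 locus left out, the low value being that without Sox17, when Gata6 was lowest. In what follows the value of the autosomes stands in parentheses. With minimums of 5 and 10 reads, the median was 11 and 16 reads per CG site (11 and 16), both strands were listed in 32.5% and 25.3% of dyads (34.6% and 27.0%), and CH made up 2.96% and 2.61% of cytosines (4.34% and 2.73%). With 10 reads, empty bins made up 20% (49.6%) and 2 loci, Cdx2 and Sox17, had fewer cytosines inside than in their flanks. Empty bins made up 14.6% in bins of 500 bp (41.1%) and 2.20% in bins of 2 kb (15.9%). Leaving out 1 locus at a time gave 3.22% to 6.57% empty bins, the lowest without Sox17 and the highest without Gata4. CH shares ran from 2.70% to 4.90%, the lowest without Gata6, so the share of 4.08% over all 7 rests on that locus. Both-strand shares then ran from 35.0% to 36.9% and the median from 9 to 10 reads. An alternative chosen after seeing the data left runs of at least 50 empty bins out of the autosomes and gave 26.0% empty bins in place of 27.3%. Of 105 alternative values of single loci, 45 moved beyond their counting interval. A higher minimum, the weight of 0.5 and leaving out the top 0.1% can only lower counts per kb or leave them unchanged. A higher minimum can also only add empty bins, so such moves had a fixed direction. The ratio of inner interval to flanks could move either way, and it moved only at Sox17 (0.789 with a minimum of 10 reads). Beyond this, the cause of each change was not tested. Also chosen after seeing the data, minimums of 5 and 10 reads gave CH shares of 13.8% and 17.1% at Gata6, against 4.57% and 3.06% on chromosome 18.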
